A study of Rattus norvegicus with 16 samples.

Results

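The genes described here encode the proteins of the cytosolic ribosome. They were measured by 59 probe sets for 40 genes, out of 8740 probe sets on a rat expression array. A probe set was taken where the annotation gave it 1 gene symbol, and that symbol was an Rpl or Rps number (with the lettered and l-type paralogs that share this form), Rplp0, Rplp1, Rplp2 or Rpsa. S6 kinase genes and mitochondrial ribosomal protein genes were left out, and Rplp1 and Rplp2 had no probe set of this kind. The large subunit accounted for 40 probe sets (27 genes), the small subunit for 18 (12 genes), and the stalk protein Rplp0 for 1. A further 40 probe sets list several symbols, at least 1 of them a ribosomal protein symbol, and are described only as a group.

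The 16 arrays held total RNA from rat dentate gyrus, the input region of the hippocampus, in 7 labelled groups. The naive and 6 h groups have 3 arrays each, and the 0 h, 2 h, 3 h, 12 h and 24 h groups have 2 each. Passive avoidance, named in every label, is a test of memory in which an animal learns to stay away from a place or act that was punished. The naive labels name trained rats too. Here the naive arrays serve as the untrained group and the other 6 groups together are called trained. Whether the hours were counted from the training is not in the labels. No strain, sex, age, training protocol or pooling is given. Separate animals for the replicates are not mentioned in any label, so a p-value here measures the spread between these samples alone, and that spread may be technical.

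Ribosomal proteins join the ribosomal RNAs in near-equal numbers to form a small subunit, which reads the messenger RNA, and a large subunit, which makes the peptide bond. Their messenger RNAs are among the most abundant in most cells. They typically begin at a C in a stretch of C and T called the oligopyrimidine tract, through which mTOR signalling and the protein Larp1 control how strongly they are translated. New protein synthesis in the hippocampus is needed for lasting memory in many learning tasks. An array reads transcript abundance and not translation. In bulk tissue, fewer cells of a type and less RNA per cell cannot be told apart.

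The start regions of the members that the results turn on are shown with their stretches of C and T near the start. RefSeq promoter sequences on the GRCr8 build were matched for 36 of the 40 genes. Each line gives the 40 bases before the annotated transcript start and the first 20 from it, on the gene's strand, with capitals on the longest unbroken stretch of C or T that reaches within 10 bases of the start.
Rps3: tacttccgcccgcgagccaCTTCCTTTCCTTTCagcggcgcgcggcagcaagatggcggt
Rpl35: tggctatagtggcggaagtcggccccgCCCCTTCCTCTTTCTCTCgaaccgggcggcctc
Rps23: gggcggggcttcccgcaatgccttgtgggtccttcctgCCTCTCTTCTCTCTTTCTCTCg
Rpl7a: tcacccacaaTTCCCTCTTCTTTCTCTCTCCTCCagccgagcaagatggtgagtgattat
Rpl21: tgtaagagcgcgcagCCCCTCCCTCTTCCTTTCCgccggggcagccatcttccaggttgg
Rplp0: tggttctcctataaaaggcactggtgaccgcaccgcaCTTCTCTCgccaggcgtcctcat
Rpl24: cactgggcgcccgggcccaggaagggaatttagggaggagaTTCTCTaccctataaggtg
Rpl36: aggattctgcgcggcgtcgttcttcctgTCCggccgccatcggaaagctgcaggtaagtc
Rps16: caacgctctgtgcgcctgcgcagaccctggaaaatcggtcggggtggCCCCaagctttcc
These windows lie at chr1:163195757-163195816 (minus strand) for Rps3, chr3:43165902-43165961 (minus) for Rpl35 and chr2:23814477-23814536 (plus) for Rps23. Those of Rpl7a and Rpl21 lie at chr3:30637096-30637155 (plus) and chr12:13386134-13386193 (minus), and that of Rplp0 at chr12:46718371-46718430 (minus). Rpl24 is at chr11:58128386-58128445 (minus), Rpl36 at chr9:1533740-1533799 (plus) and Rps16 at chr1:92770618-92770677 (plus). The first 6 genes carry a stretch of at least 8 and the last 3 a shorter one. A stretch of 8 or more reached within 10 bases of the start in 23 of the 36 member promoters (63.9%), against 13.5% of all 27457 promoters in the table. A C at the start itself followed by 4 bases of C or T was found in 30.6% of member promoters and 2.63% of all.

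Other motifs were searched on both strands of windows running from 250 bases before to 50 after the start. CTTTCC was present in 47.2% of member promoters and 26.4% of all promoters. CGGAAGT, the core bound by ETS-family factors, was present in 25.0% against 6.70%, and CCGGAAG, which overlaps it, in 25.0% against 9.22%. AAGATGG, which resembles the YY1 site and can cover the start codon, was present in 22.2% against 7.30%. TATAAA was no more frequent in member promoters (11.1%) than in all (14.3%). These matches describe letters in a window and not bound sites.

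Deposited intensities were scaled to a common trimmed mean and put on a log2 scale, with a lowest level of 2.34. All 59 probe sets were among the 6220 tested, and 56 were above the filter on low values on all 16 arrays. By mean signal, 45 lay among the brightest 10% of the tested probe sets. Brightness also depends on the probes, so it gives no order of abundance between genes.

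On each array, the median over the 59 probe sets of the deviation from each probe set's own mean gives the level of the set in 1 number. It was -0.11, -0.21 and -0.17 on the 3 naive arrays, -0.08 and -0.04 at 0 h, and 0.11 and 0.27 at 2 h. It was -0.01 and 0.14 at 3 h, 0.09, 0.08 and 0.30 at 6 h, 0.01 and -0.13 at 12 h, and -0.10 and 0.04 at 24 h. The naive arrays were the lowest group, and 12 of the 13 trained arrays lay above the highest naive array; the exception was 12 h replicate 2. Group means were -0.16 ± 0.05 (SD, n = 3) in naive, 0.19 ± 0.12 (n = 2) at 2 h and 0.15 ± 0.13 (n = 3) at 6 h. The 2 h and 6 h arrays did not overlap the naive arrays, whereas they overlapped each other.

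**Figure D1:**
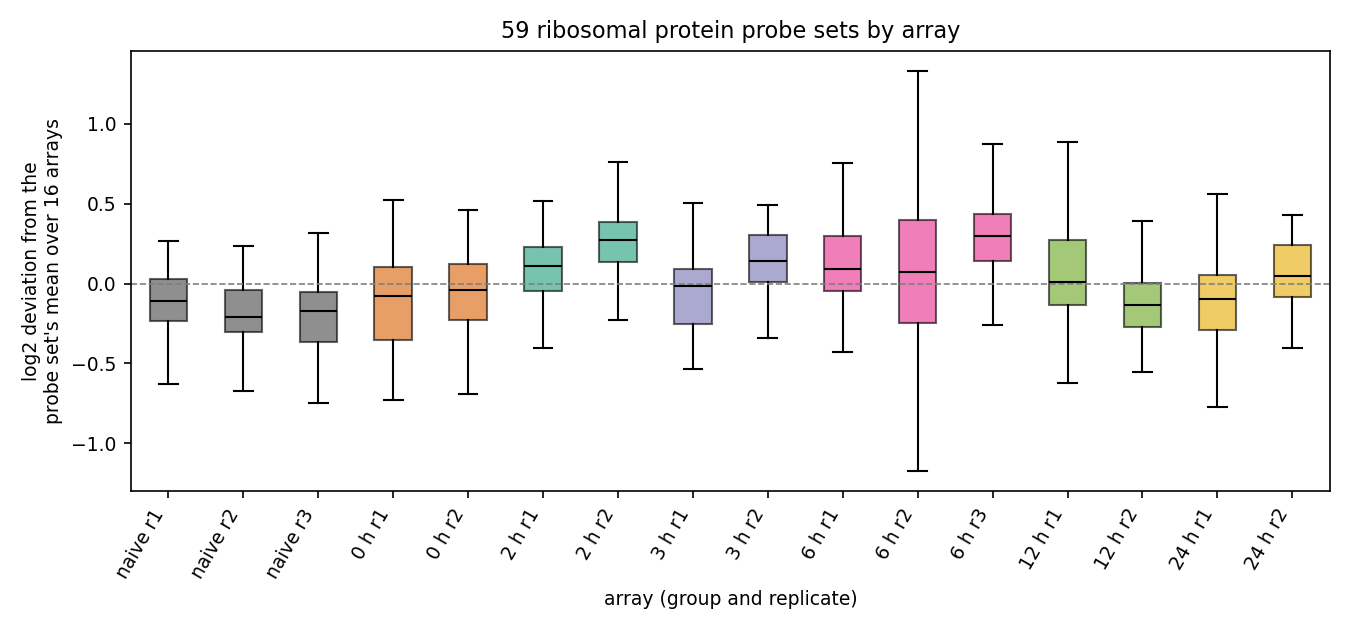
Box plots of the log2 deviation of the 59 ribosomal protein probe sets from their own means over 16 arrays, 1 box per array, coloured by group; the line is the median, the box the quartiles, and whiskers reach the last value within 1.5 times the box length. Medians are -0.21 to -0.11 on the naive arrays, a range that also holds 12 h replicate 2 (-0.13), and highest on 6 h replicate 3 (0.30) and 2 h replicate 2 (0.27).

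Several measures of the arrays also differed between naive and trained arrays. The beta-actin control ratio (3' over 5' probe set), which is larger where the RNA or the labelled product is short, was 1.49 to 1.70 on naive arrays and above all of them on 12 of the 13 trained arrays. The actin ratio was highest on 12 h replicate 2 (2.80), the trained array where the set was lowest (-0.13). The GAPDH control ratio was 1.12 to 1.28 on naive arrays and above all of them on 8 trained arrays. The trimmed mean intensity before scaling was 113 to 143 on naive arrays. It was below all of them on 9 trained arrays, down to 33.3 on 12 h replicate 1. The highest raw values were alike throughout (4273 to 7281). Choroid plexus and ependyma markers, which are high where that tissue is in the dissection, had a median difference of -1.63 between trained and naive, with 15 of 16 probe sets lower. Their summed level was 4701 to 11750 on naive arrays and 629 to 10040 on trained arrays. Oligodendrocyte markers had a median difference of -0.35, with 11 of 11 lower, and summed to 5441 to 7083 on naive and 3270 to 6855 on trained arrays. The 5 tested granule neuron probe sets summed to 521 to 695 on naive and 506 to 752 on trained arrays. With the actin ratio as a covariate, the median ribosomal protein difference between trained and naive was 0.16 in place of 0.21, and with Ttr, the main choroid plexus transcript, 0.19. At 0 h it was -0.003 and 0.04 in place of 0.13. The part of these measures in the results was otherwise not tested.

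**Figure D2:**
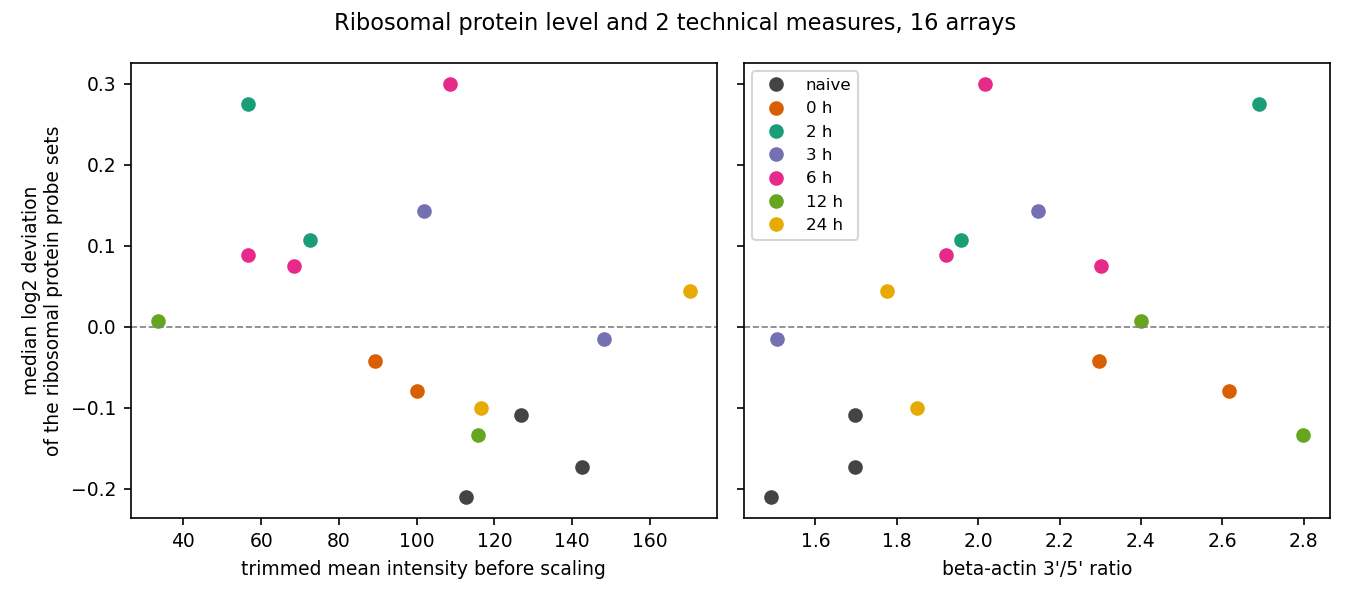
Median log2 deviation of the 59 ribosomal protein probe sets (vertical axis) on each of the 16 arrays against the trimmed mean intensity before scaling (left) and the beta-actin 3'/5' ratio (right), coloured by group. Naive arrays lie low on the vertical axis, between 113 and 143 in intensity, and at actin ratios of 1.49 to 1.70.

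Each trained group was set against the naive arrays to ask whether transcripts of the translation machinery changed after the task. Ribosomal protein transcripts were mostly higher than in naive tissue, by small amounts, and under the scaling used the median was highest at 2 h and 6 h. This order depends on the scaling: under median centring 3 h (0.39) was above 2 h (0.28), and under cyclic loess 3 h and 6 h were both 0.17. At 2 h, 55 of the 59 probe sets were above the naive mean, with a median log2 difference of 0.36 (1.28-fold), while the median over all 6220 tested probe sets was 0.03. At 6 h, 50 of 59 were above, with a median of 0.31 (1.24-fold) against -0.03 over all. At 3 h, 47 were above, with a median of 0.20 against -0.07 over all. At 0 h, 12 h and 24 h, 36, 38 and 38 were above, with medians of 0.13, 0.09 and 0.15 against -0.02, 0.06 and -0.004 over all. No ribosomal protein probe set passed an adjusted p of 0.05 in any comparison, so none is said to have changed. The share of all tested probe sets that passed was 0.0161% at 2 h and 0% at every other hour. These comparisons share the same 3 naive arrays and are not independent of each other.

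Bright probe sets of other genes give a closer background. The 542 probe sets in the brightest 10% with no ribosomal protein symbol had medians of 0.12 at 0 h, 0.06 at 2 h, 0.05 at 3 h, 0.10 at 6 h, 0.09 at 12 h and 0.02 at 24 h. The ribosomal protein medians at 0 h and 12 h were thus near those of other bright probe sets. The 38 tested probe sets with several symbols had medians of 0.39 at 2 h and 0.32 at 3 h, with all 38 above naive at both times, and 0.21 at 6 h. Their medians at 0 h and 12 h were -0.03 and 0.01.

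**Figure D3:**
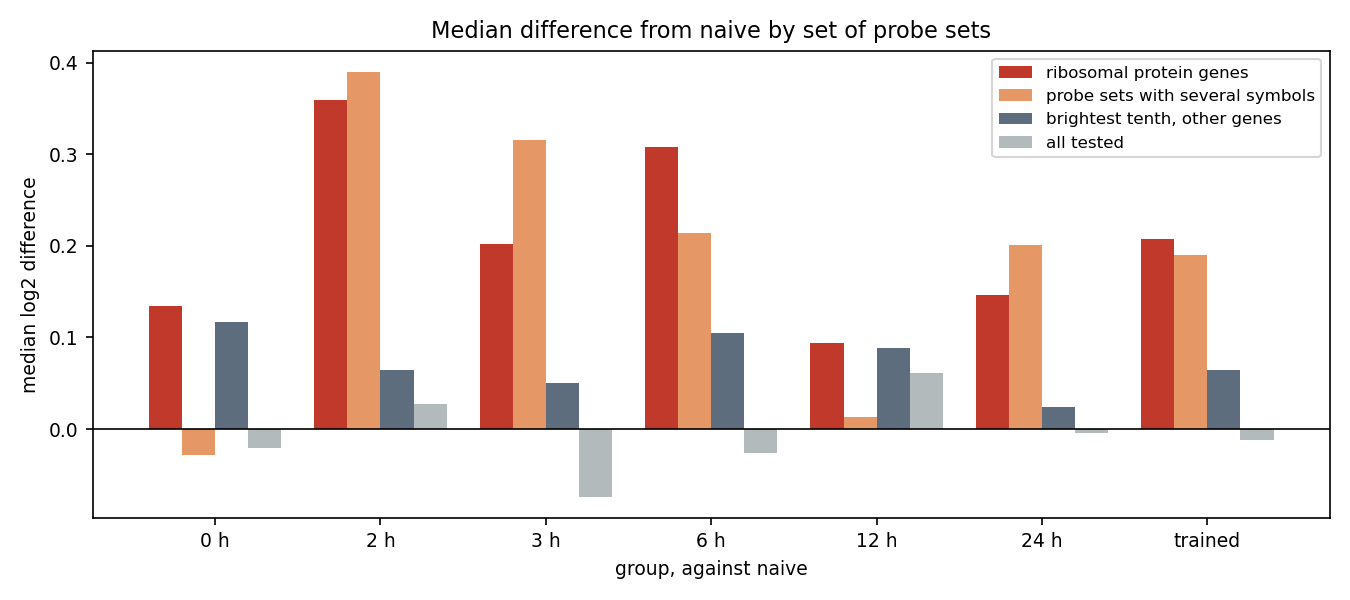
Median log2 difference from naive for each trained group and for all trained groups together, over the 59 ribosomal protein probe sets, the 38 probe sets with several symbols, 542 other probe sets of the brightest 10% and all 6220 tested. The ribosomal protein bars stand farthest above the other bright probe sets at 2 h (0.36 against 0.06) and 6 h (0.31 against 0.10); bars carry no error, since probe sets are not replicates.

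Without adjustment for multiple tests, 16 ribosomal protein probe sets were higher at 2 h at p under 0.05 (27.1%, where 3.6% of all tested were) and 15 at 6 h (25.4%, where 3.12% of all were). There were 4 such probe sets at 3 h (background 0.772%), 5 at 12 h (4.53%), 1 at 24 h (0.965%) and 0 at 0 h (1.53%). Those lower at this level numbered 1 at 0 h (background 3.47%), 1 at 3 h (3.54%), 2 at 12 h (5.61%), and 0 at 2 h (4.07%), 6 h (6.29%) and 24 h (3.47%). The count at 2 h fell to 2 without 2 h replicate 2 and to 6 without naive replicate 2. It was 3 with the actin ratio as a covariate and 8 under cyclic loess, and the count at 6 h was then 5 and 8. The count at 3 h was 0 without 3 h replicate 2, 1 without naive replicate 3, 2 without any 1 of the 0 h and 2 h arrays, 7 without 6 h replicate 3 and 9 without 6 h replicate 2. The count at 12 h was 0 without 12 h replicate 1, 8 without naive replicate 3 and 10 without 12 h replicate 2. The count at 24 h was 0 without naive replicate 3, 2 without 6 h replicate 2 and 3 without naive replicate 1 or 2.

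Both 2 h arrays lay above all 3 naive arrays for 31 of 59 probe sets, where 15.3% of all tested did so. All 3 arrays at 6 h did so for 16, against 4.34% of all, and both at 3 h for 25, against 7.3%. At 0 h, 12 h and 24 h this held for 17, 12 and 17, against 10%, 15.9% and 8.86%. Below every naive array lay 6 probe sets at 0 h (background 11.7%), 1 at 2 h (11.7%), 3 at 3 h (12%), 0 at 6 h (6.56%), 4 at 12 h (11.8%) and 4 at 24 h (11.8%). Of the 59 probe sets, 17 were above the naive mean in all 6 trained groups and 16 in 5 of them, and 24 had their largest difference at 2 h. Over large-subunit probe sets the median was 0.14 at 0 h, 0.35 at 2 h, 0.20 at 3 h, 0.29 at 6 h, 0.08 at 12 h and 0.14 at 24 h. Over small-subunit ones it was 0.09, 0.31, 0.30, 0.32, 0.16 and 0.16 at the same hours, and the difference between subunits was not tested.

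**Figure D4:**
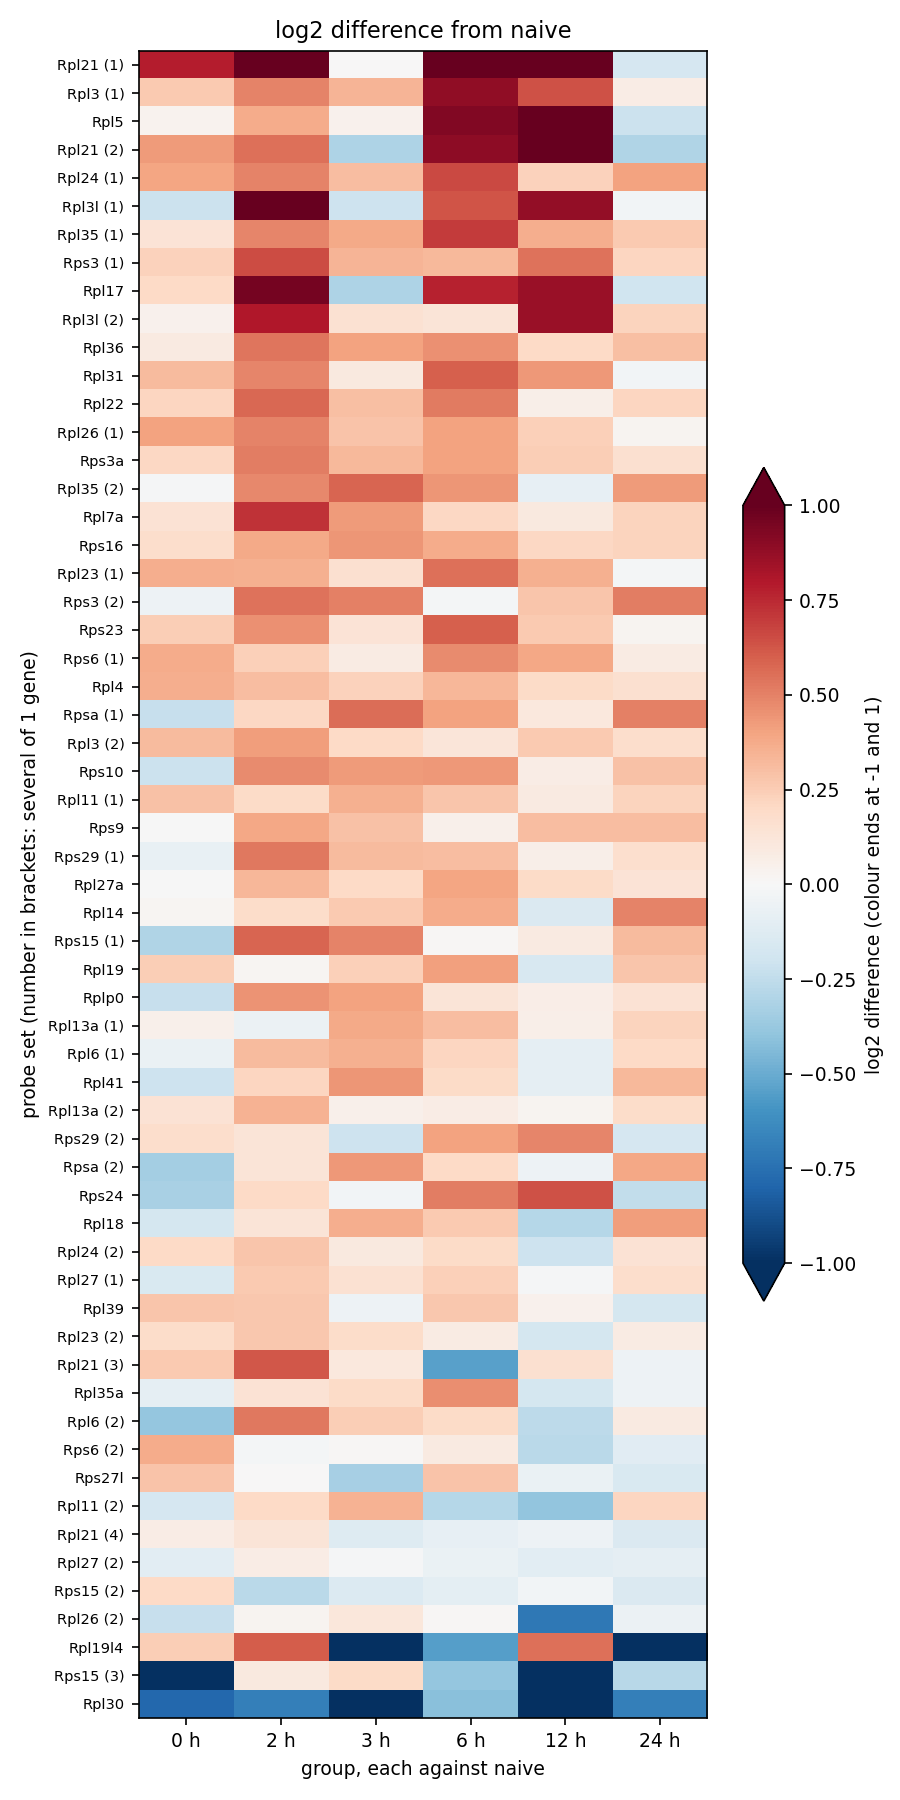
Log2 difference from naive of each of the 59 ribosomal protein probe sets (rows, ordered by trained against naive) in the 6 trained groups (columns); red is higher and blue lower, and colour ends at -1 and 1. The 2 h and 6 h columns are red in most rows, and the rows at the foot (Rpl30, 1 probe set of Rps15 and Rpl19l4) are blue in several columns.

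Over all trained groups, weighted equally, 51 of the 59 probe sets were higher than naive, with a median of 0.21 (1.15-fold) against -0.01 over all tested and 0.06 over other bright probe sets. No probe set of any gene passed the adjusted threshold in this comparison (0% of those tested), and 6 ribosomal protein probe sets were higher at an unadjusted p under 0.05 (10.2%, against 1.66% of all) and 0 were lower (against 3.7%). The count of 6 was 3 without naive replicate 1 or 24 h replicate 2, and 10, 11 and 12 without 6 h replicate 2, 12 h replicate 2 and 24 h replicate 1. The 8 with the smallest p belonged to Rpl24, Rps3, Rpl35, Rpl36, Rpl21, Rps16, Rps23 and Rpl26. Their differences were smaller under some alternatives, which include averaging the probe sets of a gene. The lowest were 0.27 for Rpl24, 0.27 for Rps3, 0.17 for Rpl35 and 0.13 for Rpl36. They were 0.34 for Rpl21, 0.17 for Rps16, 0.175 for Rps23 and 0.084 for Rpl26.

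Rpl24 forms part of a bridge between the subunits. Its log2 level was 9.73, 9.55 and 9.23 on the naive arrays, 9.85 and 9.95 at 0 h, 9.92 and 10.09 at 2 h, and 9.93 and 9.69 at 3 h. It was 10.03, 10.18 and 10.28 at 6 h, 9.97 and 9.49 at 12 h, and 9.91 and 9.91 at 24 h. Of the 13 trained arrays, 11 lay above every naive array, and the exceptions were 3 h replicate 2 and 12 h replicate 2. The difference between trained and naive was 0.42 (SE 0.14; limma adjusted p = 0.922). At 6 h, where all 3 arrays lay above naive, the difference was 0.66 (SE 0.18; limma adjusted p = 0.373). A second Rpl24 probe set had a difference of 0.12 between trained and naive.

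Rps3 lies at the channel through which messenger RNA enters the small subunit, and also has roles in DNA repair. Its level was 10.39, 10.55 and 10.68 in naive, 10.84 and 10.70 at 0 h, 11.27 and 11.12 at 2 h, and 10.73 and 11.02 at 3 h. It was 10.99, 10.72 and 10.88 at 6 h, 11.17 and 11.00 at 12 h, and 10.62 and 10.89 at 24 h. The 3 highest arrays were at 2 h and 12 h, and only 24 h replicate 1 of the trained arrays fell within the naive range. The differences from naive were 0.66 at 2 h (SE 0.19; limma adjusted p = 0.401) and 0.54 at 12 h (SE 0.19; limma adjusted p = 0.378). A second Rps3 probe set gave 0.54 at 2 h, 0.28 at 12 h and -0.02 at 6 h, where 6 h replicate 2 was at 8.74.

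Rpl35 sits at the exit of the peptide tunnel. Its level was 10.69, 10.59 and 10.30 in naive, 10.58 and 10.74 at 0 h, 10.92 and 11.11 at 2 h, and 10.77 and 11.04 at 3 h. It was 10.98, 11.48 and 11.22 at 6 h, 11.20 and 10.58 at 12 h, and 10.72 and 10.85 at 24 h. All arrays at 2 h, 3 h, 6 h and 24 h lay above naive, whereas the 0 h and 12 h groups each had 1 array within the naive range. At 6 h the difference was 0.70 (SE 0.20; limma adjusted p = 0.377), and a second Rpl35 probe set had its largest difference at 3 h, 0.58.

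Rps16, a small-subunit protein whose C-terminal tail reaches the transfer RNA, was the only 1 of the 8 to be above every naive array on all 13 trained arrays. It was 10.98, 10.89 and 10.93 in naive, 11.11 and 11.11 at 0 h, 11.32 and 11.30 at 2 h, and 11.16 and 11.59 at 3 h. It was 11.41, 11.09 and 11.40 at 6 h, 11.24 and 11.05 at 12 h, and 11.01 and 11.30 at 24 h. The difference was 0.30 (SE 0.14; limma adjusted p = 0.931). At 3 h it was 0.44 (SE 0.19; limma adjusted p = 0.998), and 0.23 without 3 h replicate 2. Its start region, shown above, has no stretch of C and T of 8 or more.

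Rps23, a protein of the decoding centre, was 10.24, 10.28 and 10.43 in naive and 10.96, 10.99 and 10.81 at 6 h, without overlap. It was 10.67 and 10.46 at 0 h, 10.66 and 10.88 at 2 h, 10.33 and 10.58 at 3 h, 10.80 and 10.36 at 12 h, and 10.20 and 10.50 at 24 h. The level at 24 h spanned the naive range. Rpl36 was 9.33, 9.26 and 9.04 in naive, 9.41 and 9.20 at 0 h, 9.65 and 9.84 at 2 h, and 9.48 and 9.75 at 3 h. It was 9.48, 9.75 and 9.79 at 6 h, 9.28 and 9.54 at 12 h, and 9.37 and 9.67 at 24 h. For Rpl36 the arrays at 2 h, 3 h, 6 h and 24 h were all above naive.

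**Figure D5:**
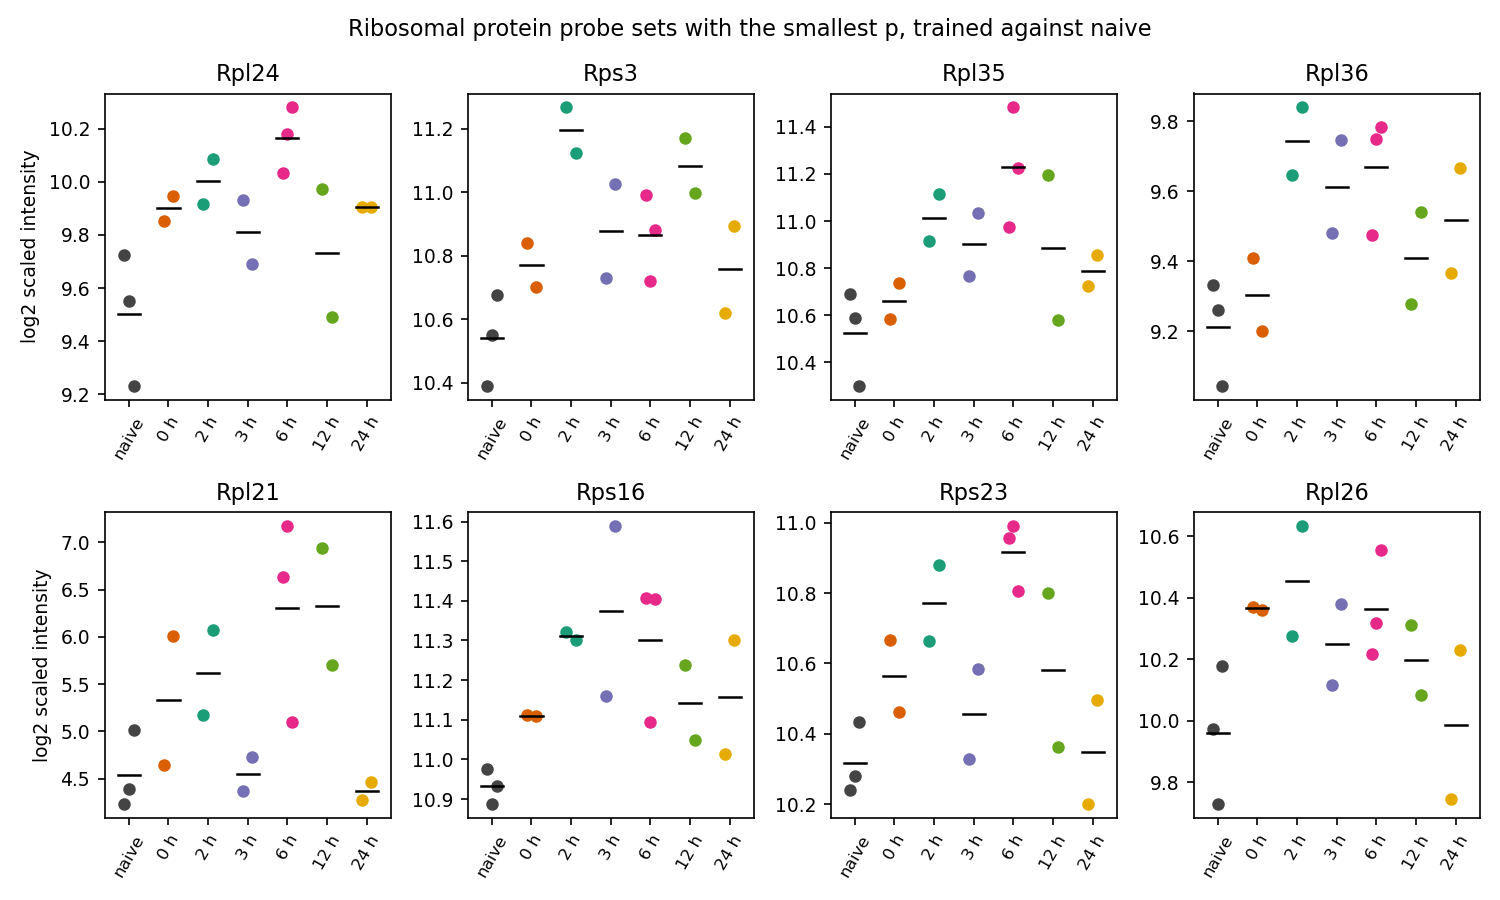
Log2 scaled intensity (vertical axes, which differ between panels and do not start at 0) of the 8 ribosomal protein probe sets with the smallest p for trained against naive, by group; points are arrays and bars are group means. Rps16 is above every naive array on all 13 trained arrays, and Rpl21 has the widest spread within the 6 h group (5.10 to 7.17).

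Rpl26, which lies near the tunnel exit and also binds p53 messenger RNA, was 9.97, 9.73 and 10.18 in naive and 10.37 and 10.36 at 0 h. It was 10.27 and 10.63 at 2 h, 10.12 and 10.38 at 3 h, 10.22, 10.32 and 10.55 at 6 h, 10.31 and 10.09 at 12 h, and 9.74 and 10.23 at 24 h. Values at 0 h, 2 h and 6 h were all above naive. A second Rpl26 probe set gave -0.14 for trained against naive and -0.71 at 12 h, against 0.31 and 0.24 for the first, so the probe sets of this gene differ in direction. The first gave 0.19 for trained against naive without naive replicate 2, its lowest value on leaving out 1 array. Among the 16 genes with several probe sets, 11 had all of them higher in trained arrays. The direction differed between probe sets for Rpl11, Rpl21, Rpl26, Rpl27 and Rps15.

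The largest positive differences among ribosomal proteins at 6 h and 12 h belonged to a dim probe set of Rpl21, a protein on the outer face of the large subunit. It was 4.23, 4.39 and 5.01 in naive, 4.64 and 6.01 at 0 h, 5.18 and 6.07 at 2 h, and 4.37 and 4.73 at 3 h. It was 6.63, 7.17 and 5.10 at 6 h, 6.94 and 5.70 at 12 h, and 4.28 and 4.47 at 24 h. The difference from naive was 1.76 at 6 h (SE 0.49; limma adjusted p = 0.373) and 1.78 at 12 h (SE 0.55; limma adjusted p = 0.333), which was 1.16 without 12 h replicate 1. Its 4 highest arrays were the 4 with the lowest trimmed mean before scaling, and before scaling its intensity was 22.4 to 43.6 on naive arrays and 21.5 to 93.8 on trained ones. The same was true of 4 of the 59 probe sets (Rpl21, Rpl3, Rpl31 and Rps24). With the 4 dimmest arrays left out, a setting chosen after seeing the data, the difference at 6 h was 0.56, from the 1 array left there, 6 h replicate 3. Without 6 h replicate 3 it was 2.36, and Rpl21 was the 1 ribosomal protein probe set to pass the threshold (limma adjusted p = 0.0300). A second probe set of the same source sequence gave 0.90 at 6 h, and 2 brighter Rpl21 probe sets gave -0.08 and -0.54.

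Rpl7a, a large-subunit protein, had its high values at 2 h. It was 9.57, 9.41 and 9.34 in naive, 9.79 and 9.38 at 0 h, 10.14 and 10.19 at 2 h, and 9.71 and 10.03 at 3 h. It was 9.75, 9.29 and 9.90 at 6 h, 9.65 and 9.43 at 12 h, and 9.56 and 9.77 at 24 h. The 2 h arrays were above every other array, and the difference from naive was 0.72 (SE 0.22; limma adjusted p = 0.411). The mean of the later groups (12 h and 24 h) was below that of the earlier ones (0 h, 2 h and 3 h) by 0.27 (limma adjusted p = 0.886). The 6 h group was in neither set. In this comparison of later with earlier groups, 43 of the 59 probe sets were lower, with a median of -0.09 against 0.04 over all tested, and 0 passed the adjusted threshold, as for all tested (0%). At an unadjusted p under 0.05, 0 of the 59 were lower, where 2.48% of all were.

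Rpl3l, a paralog of Rpl3 known for replacing it in striated muscle, was dim here. It was 4.70, 4.63 and 5.19 in naive, 4.86 and 4.90 at 0 h, 5.59 and 5.68 at 2 h, and 4.80 and 5.18 at 3 h. It was 4.99, 4.87 and 5.05 at 6 h, 5.90 and 5.50 at 12 h, and 4.91 and 5.20 at 24 h. The 2 h and 12 h arrays stood above naive, by 0.80 (SE 0.28; limma adjusted p = 0.501) and 0.86 (SE 0.28; limma adjusted p = 0.358).

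Rpsa, a small-subunit protein also described as a laminin receptor precursor, had its largest differences at 3 h and 24 h. On its first probe set it was 9.66, 9.89 and 9.25 in naive, 9.38 and 9.36 at 0 h, 9.75 and 9.86 at 2 h, and 10.01 and 10.31 at 3 h. It was 9.91, 9.93 and 10.16 at 6 h, 9.76 and 9.66 at 12 h, and 10.04 and 10.17 at 24 h. The 3 h, 6 h and 24 h arrays were above every naive array, by 0.56 at 3 h (SE 0.20; limma adjusted p = 0.998) and 0.50 at 24 h (SE 0.20; limma adjusted p = 1.000). The difference at 24 h was 0.33 without naive replicate 3. The second probe set was also above every naive array at 24 h, with 10.20 and 10.28 against 9.88, 10.14 and 9.54 in naive. Rpl18 (0.36 at 3 h and 0.42 at 24 h) and Rpl41 (0.44 and 0.32) also had their largest differences at these hours. Time courses were not tested against each other.

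Rplp0, the base of the stalk that recruits elongation factors, was 10.47, 10.39 and 10.40 in naive and 10.91 and 10.83 at 2 h. It was lower than every naive array at 0 h (10.20 and 10.19) and higher at 3 h (10.72 and 10.93). The 6 h arrays, at 10.20, 10.77 and 10.69, lay on both sides. At 12 h it was 10.51 and 10.47, and at 24 h 10.49 and 10.64. The difference between trained and naive was 0.16 (SE 0.14; limma adjusted p = 0.981). Adding Ttr as a covariate gave 0.007 and the actin ratio 0.04; it was 0.06 under cyclic loess and 0.07 under quantile normalization.

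Rps6, the small-subunit protein phosphorylated by S6 kinases, differed between its probe sets. One was 9.13, 8.78 and 9.15 in naive, with a difference between trained and naive of 0.01 (SE 0.19; limma adjusted p = 1.000) that turned negative in 6 alternatives. The other was 10.16, 10.30 and 10.47 in naive and 10.51, 11.09 and 10.75 at 6 h, without overlap. Its difference between trained and naive was 0.27 (SE 0.14; limma adjusted p = 0.969). The first Rps6 probe set was 9.39 and 9.38 at 0 h, above naive, and 8.63 and 8.87 at 12 h, within or below it.

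Some probe sets went the other way. Rpl30, a large-subunit protein, was 5.25, 5.02 and 4.90 in naive, and both 3 h arrays were at the lowest level set for the data. It was thus lower at 3 h by at least 2.72 on the log2 scale (limma adjusted p = 0.998). It was 2.73 and 5.81 at 0 h, 3.10 and 5.64 at 2 h, 4.81, 5.86 and 3.25 at 6 h, 3.24 and 3.05 at 12 h, and 4.69 and 4.07 at 24 h. The 2 arrays of the 0 h and 2 h groups lay on opposite sides of naive. The probe set was dim, at 3.0 to 47.7 before scaling.

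A probe set of Rps15, which stands near the decoding site, was 9.01, 8.17 and 6.89 in naive and 4.38 and 7.37 at 0 h, a difference of -2.15 (SE 0.73; limma adjusted p = 0.848). That value rested on 0 h replicate 1: it was -0.65 without it and -3.64 without 0 h replicate 2. The other Rps15 probe sets gave -0.30 and 0.20 at 0 h.

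The F test over the 7 groups asked whether any group differed. It called 0 ribosomal protein probe sets, as for all tested (0%), and 7 of the 59 had an unadjusted p under 0.05, where 10.3% of all did. The smallest were Rpl21 (limma adjusted p = 0.326), Rpsa (limma adjusted p = 0.408) and Rps10 (limma adjusted p = 0.432). Rps10, near the messenger RNA entry site, was 9.50, 9.33 and 9.54 in naive, 9.31 and 9.17 at 0 h, 9.89 and 9.97 at 2 h, and 9.74 and 10.02 at 3 h. It was 9.92, 9.75 and 9.99 at 6 h, 9.55 and 9.50 at 12 h, and 9.50 and 10.01 at 24 h. The 0 h arrays were below every naive array, and those at 2 h, 3 h and 6 h above. Over the 6 trained groups alone, 6 of 59 had an unadjusted p under 0.05, where 10.8% of all did.

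Members were then divided by the stretch of C or T that reaches within 10 bases of their annotated start. In some genes, such as Rps3, Rpl7a and Rpl21, the whole stretch lay before the start, and in Rpl3l after it. Such a stretch need not be a tract at the start of the transcript. The 34 probe sets (23 genes) with a stretch of 8 or more C or T had a median of 0.42 at 2 h, 0.38 at 6 h and 0.25 for trained against naive. The 19 probe sets (13 genes) with a shorter stretch had 0.28, 0.27 and 0.16. The quartiles at 2 h were 0.20 to 0.57 and 0.19 to 0.49, so the groups overlapped widely, and no test was made.

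Other genes of the translation machinery were described as lists, with medians at 2 h and 6 h, where the ribosomal protein medians were 0.36 and 0.31. No probe set of any of these lists passed the adjusted threshold at any hour. Over the 31 probe sets of the initiation factor list (20 genes), medians were -0.03 at 2 h and 0.001 at 6 h. Of these, 14 and 16 were above naive. Besides initiation factors, this list holds regulators of initiation, namely the kinases Eif2ak1, Eif2ak2 and Eif2ak3 and the binding protein Eif4ebp1. The 10 probe sets of the elongation and termination list (5 genes) had -0.19 and -0.07. The genes tested were Eef1a1, Eef1a2, Eef1g, Eef2 and the Eef2 kinase Eef2k, with no termination factor. Within them, 3 of the 4 probe sets of Eef2, the translocation factor, gave -0.42, -0.81 and -0.73 for trained against naive (limma adjusted p = 0.922 for each), and the other gave 0.12 (limma adjusted p = 0.989). The 14 ribosome assembly probe sets (8 genes) had medians of 0.04 and 0.16. Ubtf, an activator of ribosomal RNA transcription, was lower in trained arrays by 0.51 (limma adjusted p = 0.922).

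The 13 probe sets of S6 kinase and mTOR signalling (9 genes) had medians of -0.03 at 2 h and -0.13 at 6 h. The 11 probe sets for non-ribosomal tract genes and ubiquitin fusions (6 genes) had -0.10 at 2 h and 0.24 at 6 h. At 0 h and 12 h the medians of these 11 were 0.26 and 0.26, with 10 and 9 above naive. They exceeded those of the ribosomal proteins (0.13 and 0.09), as did the initiation factor list at 0 h (0.15). Among the tract genes and fusions, Rack1, which binds the small subunit, was higher in trained arrays by 0.34 (limma adjusted p = 0.931). The 17 mitochondrial ribosomal protein probe sets (14 genes) had 0.15 at 2 h, with 10 above naive, and 0.10 at 6 h, with 11 above. At 3 h and 12 h they had 0.18 (14 above) and 0.09 (10 above), near the cytosolic 0.20 and 0.09. At 0 h and 24 h they had -0.09 and -0.02, where the cytosolic medians were 0.13 and 0.15. Differences between these lists and the cytosolic ribosomal proteins were not tested.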

How the data were processed

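Total RNA of 16 rat dentate gyrus samples was measured on Affymetrix RGU34A arrays, with 1 deposited linear intensity per probe set and array. The authors' software, background correction and scaling: not given in the sources used here. Of 8799 probe sets, 59 controls were left out. Intensities were scaled to a 2% trimmed mean of 105, set to at least the pooled 20th percentile (5.05) and converted to log2. Probe sets above the pooled 40th percentile (16.9) on 2 or more arrays were tested (6220). limma 3.58.1 in R 4.3.3 (lmFit, eBayes with a variance trend) was fitted to all 7 groups, with Benjamini-Hochberg adjustment over all tested probe sets and a threshold of 0.05, and was tested on simulated data. The number of arrays limits the precision. Symbols came from the platform annotation, updated through RefSeq. Of 8740 probe sets, 7006 had 1 symbol, 308 several and 1426 were not listed. Ribosomal protein genes have many near-identical copies, so assignments to single genes are uncertain. Of the 59 probe sets, 28 have a name suffix (13 s, 11 g, 3 i and 1 r). Some of these suffixes, though not i or r, mark probes which may be shared. Values were given for the 8 probe sets with the smallest p for trained against naive, 3 per other comparison, and Rplp0, Rpsa and Rps6. Members, lists and this rule were chosen with earlier results of these data known. In the main fit, replicate numbers served only as sample names. Alternatives are in the closing section.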

Additional observations from a re-analysis of the deposited data

How the results depend on the processing

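No ribosomal protein probe set passed the adjusted threshold in any comparison under any alternative run, except Rpl21 at 6 h without 6 h replicate 3. All tested probe sets called at 2 h numbered 1, and 0 under quantile normalization, cyclic loess, either covariate, the replicate block, averaging probe sets per gene, and fits limited to the compared groups. They numbered 2 with the floor at the 30th percentile. Without a filter, calls were 2 at 0 h, 8 at 2 h, 27 at 12 h, 1 for trained, 10 for later against earlier groups, and 23 and 24 in the F tests over 7 and 6 groups. Without a variance trend they were 1 at 12 h, 1 for later against earlier, and 2 in each F test. Array weights gave 6 at 24 h, fits limited to the compared groups 2 at 12 h and 4 at 24 h, and the actin covariate 2 at 3 h. With the 4 dimmest arrays left out, they were 5 at 2 h, 1 at 3 h, 9 at 12 h, 2 at 24 h, 4 for later against earlier, and 5 and 4 in the F tests, and the ribosomal protein median at 6 h was 0.48. That setting and cyclic loess were chosen after seeing the data.

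Ribosomal protein medians kept their direction under every alternative but 2: the actin covariate gave -0.0031 at 0 h, and median centring gave -0.0029 at 12 h. The median at 0 h was 0.029 under cyclic loess and 0.036 with the Ttr covariate. At 2 h it was 0.26 under both quantile normalization and cyclic loess, at 6 h 0.20 and 0.17, and at 3 h 0.39 under median centring, which moved the median of all tested probe sets there by 0.18 (quantile normalization moved it by 0.10). Relative to all tested probe sets, the 3 h median was 0.28 under both the trimmed mean and median centring. The cause was not tested.

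Leaving out 1 array gave medians of 0.084 to 0.18 at 0 h, 0.29 to 0.45 at 2 h, 0.14 to 0.31 at 3 h, 0.20 to 0.40 at 6 h, 0.040 to 0.17 at 12 h, 0.069 to 0.22 at 24 h, 0.15 to 0.25 for trained and -0.13 to -0.032 for later against earlier. Calls over all tested probe sets were 0 to 0 at 0 h, 0 to 11 at 2 h, 0 to 9 at 3 h, 0 to 29 at 6 h, 0 to 23 at 12 h, 0 to 12 at 24 h, 0 to 17 for trained, 0 to 2 for later against earlier, and 0 to 8 and 0 to 7 in the F tests. The highest came without naive replicate 1 at 2 h, 3 h, 24 h and for trained, without 12 h replicate 2 at 12 h, and without 6 h replicate 3 for 6 h, later against earlier and both F tests. For trained against naive, with 0.012 from all arrays, the first Rps6 probe set turned to -0.022 under cyclic loess and to -0.11, -0.013, -0.013, -0.022 and -0.008 without naive replicate 2, 2 h replicate 2, 6 h replicates 1 and 3, and 12 h replicate 2, while its highest value on leaving out 1 array was 0.079, without naive replicate 3, and over all alternatives 0.27, with the Ttr covariate. The second Rpsa probe set ranged from -0.029 without naive replicate 3 to 0.27 without naive replicate 2.

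Deviations from the group mean correlated at -0.20 to 0.19 between same-numbered arrays of different groups (43 pairs, median 0.025). Between differently numbered arrays the range was -0.19 to 0.18 (66 pairs, median -0.024). In a group of 2 arrays these deviations are exact opposites, so the pairs are not independent. Whether same-numbered samples share a batch or an animal cannot be told from these values. The replicate block left 0 calls at 2 h.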

Other observations

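The 5S ribosomal RNA control probe set, which lies outside the comparisons above, had scaled log2 levels of 5.22, 5.38 and 4.65 on the naive arrays. On the trained arrays it ranged from 3.62 (0 h replicate 2) to 6.31 (6 h replicate 2). The naive range lay inside the trained range.

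The raw median intensity of the 59 ribosomal protein probe sets, divided by that of all 6220 tested probe sets on the same array, was 12.8 to 14.9 on the naive arrays. It was above every naive array on both 2 h arrays (16.6 and 18.8), both 3 h arrays (17.0 and 22.3) and both 24 h arrays (15.1 and 19.8). Both 0 h arrays (14.6 and 14.5) lay inside the naive range. At 6 h it was 17.0, 14.8 and 22.9, and at 12 h 14.8 and 12.5. This ratio uses intensities before scaling, although the tested probe sets were chosen on scaled ones.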
